A study of Rattus norvegicus with 12 samples.

Results

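The heat shock proteins and chaperones examined here are 10 named genes, Hspa5, Hspa8, Hsp90aa1, Hsp90ab1, Hspb1, Hspb7, Hspd1, Hspe1, Hsph1 and Cryab. They were chosen by name, and 9 of the 10 names label a row among the 32545 genes of the deposited FPKM table. No row carries the name Hspe1. Of the 9 rows, 8 reached a mean of 0.5 FPKM over all libraries and were tested among 13910 genes, while the Hsp90aa1 row did not. At postnatal day 1 (P1), a fistula was opened from the abdominal aorta into the inferior vena cava of Sprague–Dawley rats, or a sham operation was done. The fistula loads both ventricles with extra volume (volume overload, VO). Free walls of the left ventricle (LV) and the right ventricle (RV) were taken at P7. RNA of the whole wall was sequenced, which gave 4 groups of 3 libraries, the LV and RV of sham rats and the LV and RV of VO rats. The labels do not say whether an LV and an RV library came from the same rat, nor whether animals were pooled, so p values measure the spread between these libraries.

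Chaperones hold unfolded proteins, help them to fold and pass those that cannot be folded on to degradation. The HSP70, HSP90 and HSP60 families use ATP for this, whereas small heat shock proteins bind unfolding clients without ATP. In heart muscle the small heat shock proteins are abundant and associate with desmin, titin and actin filaments. When unfolded protein accumulates in the cytosol, heat shock factor 1 binds heat shock elements in the promoters of many of these genes, and the endoplasmic reticulum (ER) has its own response, which acts through ER stress elements.

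The promoter stretches below are shown because they separate the members into those with the letters of a heat shock element, the one with those of an ER stress element, and those with neither. RefSeq promoter windows on the GRCr8 assembly, 250 bases before to 50 after a gene's start, were found for 8 of the 10 names, and none was found for Hsp90aa1 or Cryab. The heat shock element core was searched as GAANNTTC or TTCNNGAA, each of which reads the same on both strands and which may overlap each other. Capitals mark the matched letters, and positions count back from the start site. The first of the stretches belongs to Hspa8, the constitutive cytosolic Hsc70, at the place RefSeq gives it and not at that of the deposited row of this name, and lies on the + strand at chr8:50080284-50080323, 230 to 191 bases before the start.
Hspa8 distal: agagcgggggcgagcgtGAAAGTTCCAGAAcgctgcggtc
The next one, nearer to the same start, is at chr8:50080439-50080488 on the + strand.
Hspa8 proximal: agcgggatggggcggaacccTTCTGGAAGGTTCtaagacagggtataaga
The Hsph1 stretch is at chr12:10427243-10427347 on the + strand and ends 21 bases before the start.
Hsph1: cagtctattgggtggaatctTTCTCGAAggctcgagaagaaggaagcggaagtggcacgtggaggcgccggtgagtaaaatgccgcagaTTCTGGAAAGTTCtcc
Hspd1 and Hspe1, which encode the mitochondrial chaperonin and its lid, are divergent neighbours, and the same 18 bases at chr9:64084262-64084279 serve both windows. The stretch is given on the + strand, as Hspe1 reads it, at chr9:64084242-64084291.
Hspe1: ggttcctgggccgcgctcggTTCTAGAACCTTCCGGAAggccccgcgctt
The Hspb1 stretch is at chr12:26432387-26432446 on the - strand, with its last base 86 bases before the start.
Hspb1: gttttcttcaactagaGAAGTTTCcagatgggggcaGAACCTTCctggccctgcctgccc
Hspa5, the ER chaperone BiP, held none of the core letters but held the ER stress element, searched as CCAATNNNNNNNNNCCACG on both strands. Its stretch is at chr3:38452956-38453005 on the + strand.
Hspa5: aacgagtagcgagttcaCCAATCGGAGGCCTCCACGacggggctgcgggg

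The core was present in 5 of the 8 windows (Hspa8, Hspd1, Hspe1, Hsph1 and Hspb1) and in 15.9% of the 33469 RefSeq windows of the same length. Hspa8 held 4 overlapping or separate matches, Hspd1, Hspe1 and Hsph1 held 3 each, and Hspb1 held 2. Three-unit runs, GAANNTTCNNGAA or TTCNNGAANNTTC, were in 4 of the 8 windows, those of Hspa8, Hspd1, Hspe1 and Hsph1, and in 0.798% of all windows. This longer form was searched after the core matches had been seen. The ER stress element was in 1 of the 8 windows and in 0.0657% of all windows. The windows of Hspb7 and Hsp90ab1 held none of these letters, which says nothing about sequence outside them. A match is a description of letters and not a measured binding site.

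For 3 names the deposited rows do not carry what the name would lead one to look for. The row named Hspa8 lies on chromosome 5 (99031013 to 99033107, - strand), and its length of 2095 bases equals its whole span, so it is listed without introns. It held 55 to 102 reads per library, or 1.62 to 3.19 FPKM. A second row on chromosome 8 (44990014 to 44993179, + strand), named AABR07070032.1 and described as heat shock cognate 71 kDa protein, stood at 183 to 227 FPKM and is called the Hsc70 row below. The table also describes LOC680121 (chromosome 11) and LOC688932 (chromosome X) after heat shock protein 8. LOC680121, whose length of 2100 bases equals its span, stood at 18.4 to 31.1 FPKM, and LOC688932 at 0.159 to 0.554 FPKM. The Hsp90aa1 row on chromosome 6 (135045363 to 135049728, - strand) held 3 to 22 reads per library, or 0.0915 to 0.672 FPKM. A nearby row, LOC103692716 (chromosome 6, 135107271 to 135112775, - strand), described as HSP90-alpha, held 111 to 496 reads. Hspe1 is not named, but an unnamed row of 267 bases, AABR07067760.1 (chromosome 9, 61692154 to 61694599, + strand), begins 1197 bases from Hspd1. It sits between Hspd1 and Mob4, the place that RefSeq gives to Hspe1. These 3 companion rows were picked after their values had been seen, are not counted among the members, and are given beside them. Reads that fit more than one near-identical copy may have been left uncounted or placed in another such row. The levels of the Hspa8, Hsc70, Hsp90aa1 and LOC103692716 rows are therefore uncertain.

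**Figure D1:**
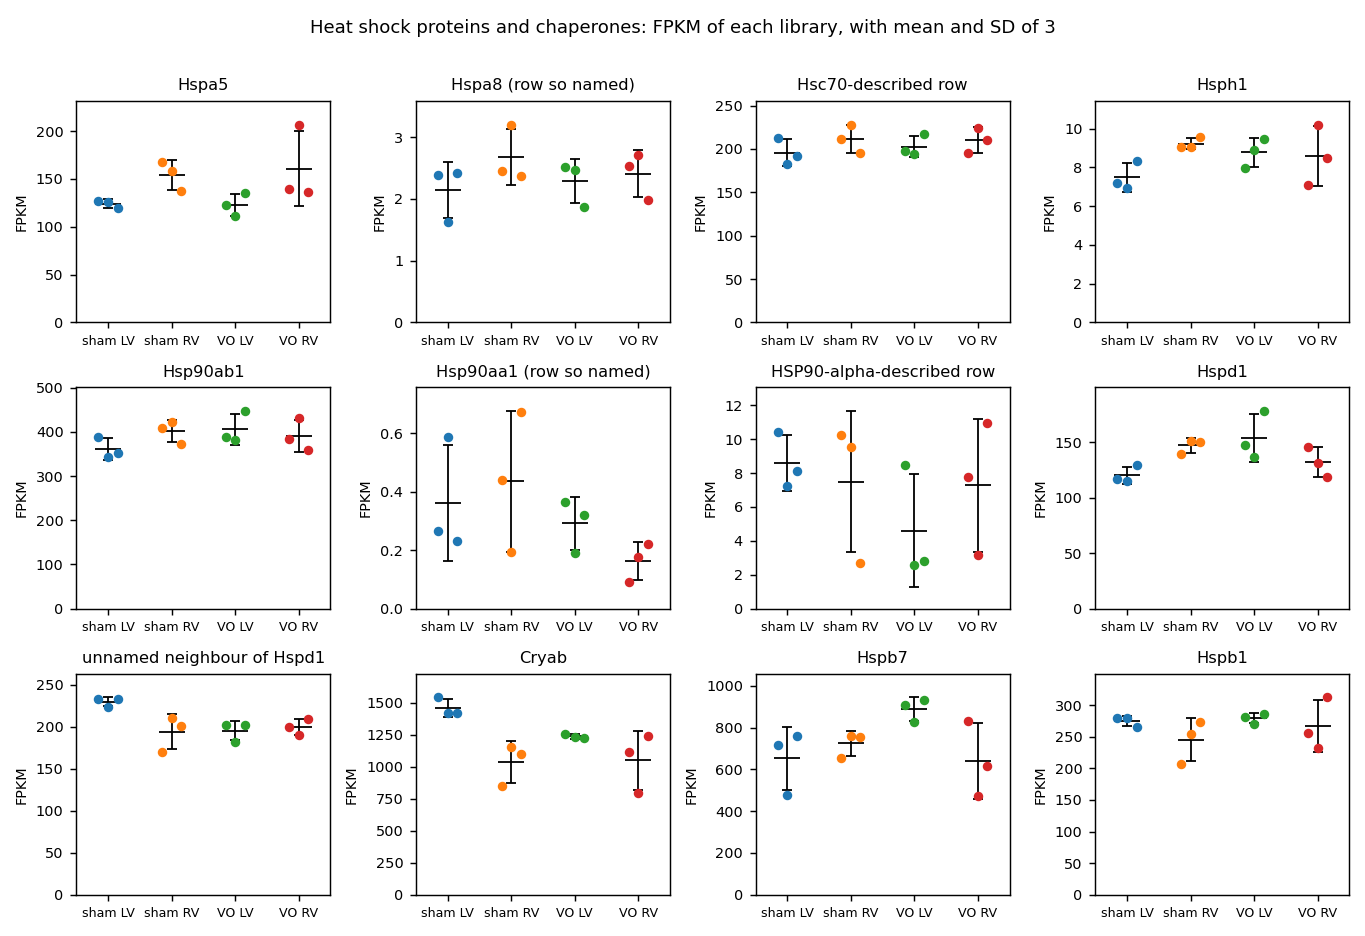
FPKM (vertical axes, from 0) of the 9 member rows and 3 companion rows in the LV and RV of sham and VO rats. Points are the 3 libraries of a group, and the horizontal bar with whiskers is their mean ± SD. Cryab of sham LV sits between 1416 and 1542 FPKM, above the 847 to 1156 FPKM of sham RV, while most other panels show overlapping groups.

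Per gene length, Cryab (αB-crystallin) was the most abundant member, with a mean of 1196 FPKM over the 12 libraries, rank 50 of all genes. Hspb7 followed with 726 FPKM, Hsp90ab1 with 390.1 FPKM and Hspb1 with 266 FPKM. Each of these stood above the next in 12 of 12 libraries. Hspa5 (140.6 FPKM) and Hspd1 (138 FPKM) could not be ordered, since Hspa5 was the higher of them in 6 of 12 libraries. Hsph1 had a mean of 8.53 FPKM, the row named Hspa8 2.38 FPKM and the row named Hsp90aa1 0.313 FPKM. The Hsc70 row (204.9 FPKM) and the unnamed neighbour of Hspd1 (204.5 FPKM) lay between Hspb1 and Hspa5. The rows of the heat-inducible cytosolic HSP70 genes held few reads, 3 for Hspa1a and 139 for Hspa1b in all 12 libraries together. These genes are near-identical copies whose shared reads may have been left uncounted, so their levels are uncertain.

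Each library held between 14121713 and 16871371 reads on genes. Markers of ventricular cardiomyocytes were present in every library (12 of 12 names found, summed level 22186 to 34464 FPKM). Between sham LV and sham RV 1 of them was called, beside 3.85% of all genes. VO RV replicate 2 stood apart in its levels of atrial and fibroblast markers. Its 4 atrial markers summed to 1522 FPKM, against 148 to 440 FPKM elsewhere. Its 8 fibroblast markers summed to 4935 FPKM, against 2063 to 3640 FPKM elsewhere, and its ventricular cardiomyocyte sum was the lowest. Sham RV replicate 1 was next in both atrial (440.1 FPKM) and fibroblast (3640 FPKM) markers. Of the endothelial list, 7 of 8 names were found and Cldn5 was at 0 in all libraries; the other 6 summed to 486 to 535 FPKM in sham LV, against 337 to 372 FPKM in sham RV, with 3 of them called higher in the LV. Smooth muscle markers ranged from 199.8 to 389 FPKM and macrophage markers from 46.4 to 86.1 FPKM. Red blood cell genes summed to 13395 to 17353 FPKM in sham LV, against 6779.8 to 11381 FPKM in sham RV, with overlapping VO groups. Skeletal muscle markers summed to at most 9.79 FPKM, with Myh1, Actn3, Tnni2 and Pvalb under 0.5 FPKM in every library.

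No member was a differentially expressed gene (DEG), defined by a limma p below 0.05 after adjustment together with a change of more than 1.3-fold, in any of the 5 comparisons. Between sham LV and sham RV, 0 of 8 members were called against a background of 3.85% of all genes tested. An unadjusted p under 0.05 was found for 3 of 8, beside 25.7% of all genes, and 1 of these (Cryab) also passed the fold threshold, beside 17.8%. Between VO LV and sham LV, 0 of 8 were called (background 0.0935%), 2 had an unadjusted p under 0.05 (23.4% of all genes) and 1 (Hspb7) passed the fold threshold as well (15.7%). Between VO RV and sham RV, 0 of 8 were called (background 0%) and 0 had an unadjusted p under 0.05, with or without the fold threshold (4.91% and 8.4% of all genes). Between VO LV and VO RV, 0 of 8 were called (background 0.00719%), 2 had an unadjusted p under 0.05 (11.4%) and 1 (Hspb7) passed the fold threshold as well (7.4%). When the response to VO was compared between the ventricles, 0 of 8 were called (background 4.19%) and 2 (Hspd1 and Hspb7) had an unadjusted p under 0.05 (25.5%) and passed the fold threshold as well (23.1%). With voom on the recovered reads, 0 members were called in each comparison as well, beside 4.93%, 2.42%, 0%, 0.00719% and 5.75% of all genes in the same order. Exact permutation tests of 3 libraries against 3 cannot go below a two-sided p of 0.10.

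Most members had lower fitted levels in sham LV than in sham RV and higher ones in VO LV than in sham LV, without passing the test. Of 8 members, 2 (Cryab and Hspb1) had the higher fitted level in sham LV, and the median log2 fold change of sham LV against sham RV was −0.23, beside 0.01 over all genes. In VO LV against sham LV, 6 of 8 were higher, with a median of 0.13 beside −0.02 over all genes; Hspa5 and Cryab were the exceptions. In VO RV against sham RV, 3 of 8 were higher, with a median of −0.07 beside 0.0029 over all genes. The sham LV libraries enter the first comparison and the second, so their medians are not independent of each other. These medians of 8 members rested in part on single libraries. Without sham LV replicate 2 the first was −0.12, with 3 of 8 members higher, and the second 0.08, with 5 of 8 higher. Without sham RV replicate 2 the first was −0.15, and the third ran from −0.13 to −0.0064 when each library was left out. The groups did not overlap for 4 of 8 members between the sham ventricles (32.2% of all genes), for 3 of 8 between VO LV and sham LV (32.4%), for 0 of 8 between VO RV and sham RV (12.5%) and for 1 of 8 between VO LV and VO RV (16.1%).

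**Figure D2:**
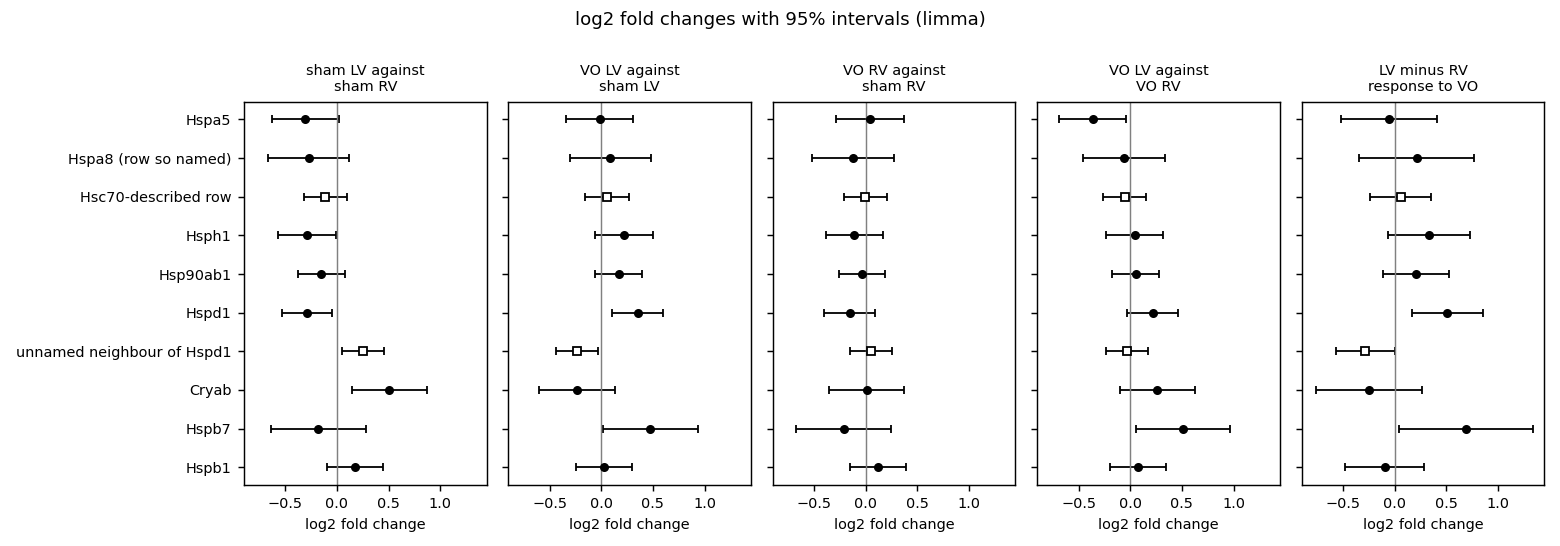
log2 fold changes (horizontal axes) with 95% intervals from limma for the 8 tested members (filled circles) and for the Hsc70 row and the unnamed neighbour of Hspd1 (open squares), in 5 comparisons. Cryab lies to the right of 0 between the sham ventricles (0.51), and Hspd1 and Hspb7 lie to the right of 0 for VO LV against sham LV (0.35 and 0.48). The HSP90-alpha-described row is left out for its wide intervals.

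Hspa5 encodes BiP, the HSP70 of the ER and the sensor that holds the unfolded protein response in check (chromosome 3, 13838304 to 13842762, + strand, as deposited). In sham LV it stood at 127, 126 and 119 FPKM, and in sham RV at 167, 158 and 137 FPKM. Every sham RV library was above every sham LV library, with a log2 fold change of LV against RV of −0.31 (limma adjusted p = 0.219, standard error 0.15, exact permutation p = 0.10). In VO LV it was 122, 112 and 135 FPKM, and in VO RV 139.6, 206 and 137 FPKM, again without overlap (log2 fold change −0.36, limma adjusted p = 0.402, standard error 0.15). The 206 FPKM belonged to VO RV replicate 2, while the others, at 139.6 and 137 FPKM, were close to the highest VO LV library (135 FPKM). Without VO RV replicate 2 this log2 fold change was −0.17. The log2 fold changes of Hspa5 under VO were −0.02 (95% interval −0.34 to 0.31) in the LV and 0.04 (−0.29 to 0.37) in the RV. In a whole wall, fewer cells of a type and less RNA per cell cannot be told apart.

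The genes whose log2 level was most like that of Hspa5 over the 12 libraries, among 8621 genes with a mean of at least 5 FPKM, were Pdgfra (Pearson r = 0.979), Ltbp1 (0.965) and Matn2 (0.958). Pdgfra is a receptor of fibroblasts and one of the 8 fibroblast markers, Ltbp1 binds latent TGF-β in the matrix, and Matn2 is a matrix protein. Pdgfra was 9.30 FPKM in VO LV replicate 2, the library with the lowest Hspa5, and 29.7 FPKM in VO RV replicate 2, the library with the highest. The part of fibroblast content in the level of Hspa5 was not tested. The libraries share groups and the likeness is a description without a test.

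**Figure D3:**
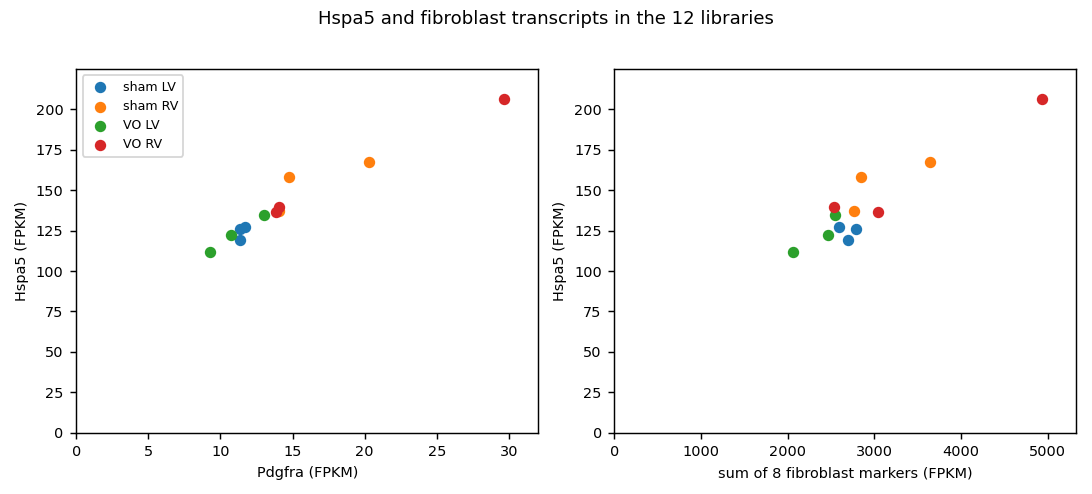
Hspa5 (vertical axes, FPKM) against Pdgfra (left, FPKM) and against the sum of 8 fibroblast markers (right, FPKM), with 1 point for each of the 12 libraries, coloured by group. VO RV replicate 2 is the point at the upper right, with 206 FPKM of Hspa5, 29.7 FPKM of Pdgfra and 4935 FPKM of fibroblast markers.

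The Hsc70 row was the steadiest of the abundant rows. It stood at 212, 183 and 192 FPKM in sham LV, next to 212, 227 and 195 FPKM in sham RV, 197, 194 and 217 FPKM in VO LV and 195, 225 and 210.5 FPKM in VO RV. All 4 groups overlapped, and the coefficient of variation over the 12 libraries was 6.9%. The interval for VO LV against sham LV was −0.15 to 0.26 on the log2 scale and that for VO RV against sham RV −0.21 to 0.20. The row named Hspa8 had 2.39, 1.62 and 2.41 FPKM in sham LV, next to 2.46, 3.19 and 2.38 FPKM in sham RV, 2.51, 2.47 and 1.87 FPKM in VO LV and 2.53, 2.71 and 1.97 FPKM in VO RV. Its groups overlapped in all comparisons, and its log2 fold changes ran from −0.27 to 0.21.

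Hsph1, the HSP110 that exchanges nucleotide on HSP70 and helps it to take aggregates apart (chromosome 12, 6322668 to 6341902, - strand), stood below the abundant members, at rank 6679 of all genes. In sham LV it was 7.19, 6.93 and 8.34 FPKM, and in sham RV 9.07, 9.08 and 9.57 FPKM. The groups did not overlap, with a log2 fold change of −0.29 (limma adjusted p = 0.180, standard error 0.13, exact permutation p = 0.10). In VO LV the values were 7.99, 8.90 and 9.49 FPKM, partly above sham LV (log2 fold change 0.22, adjusted p = 0.313 from limma), and in VO RV they were 7.09, 10.2 and 8.49 FPKM, spread around those of sham RV (−0.11, adjusted p = 0.821 from limma). Nolc1 (r = 0.957), Sik2 (0.940) and Foxp1 (0.929) were the genes most like Hsph1 over the 12 libraries.

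Hsp90ab1, the constitutive cytosolic HSP90 that matures kinases and steroid receptors (chromosome 9, 17817721 to 17823243, + strand), was the most abundant of the ATP-driven members. It was 389, 343 and 353 FPKM in sham LV, against 409.6, 422 and 373 FPKM in sham RV. Under VO it was 389, 382 and 447 FPKM in the LV and 384, 430.4 and 359 FPKM in the RV. The groups overlapped in each comparison. The log2 fold changes were −0.15 for the sham ventricles, 0.17 for VO in the LV (95% interval −0.06 to 0.39) and −0.04 for VO in the RV (−0.26 to 0.19). Leaving out each library in turn gave −0.21 to −0.11 for the sham ventricles and 0.097 to 0.22 for VO in the LV. The inducible partner could not be followed in the row named Hsp90aa1, where 3 to 22 reads stood behind a value. Its libraries read 0.266, 0.588 and 0.229 FPKM in sham LV, next to 0.44, 0.192 and 0.672 FPKM in sham RV, 0.365, 0.192 and 0.319 FPKM in VO LV, and 0.0915, 0.177 and 0.221 FPKM in VO RV.

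The row described as HSP90-alpha fell into separate sets of libraries that did not follow the groups. In 4 libraries (sham RV replicate 3, VO LV replicates 2 and 3, and VO RV replicate 2) it was 2.56 to 3.15 FPKM, and in the other 8 libraries 7.22 to 10.9 FPKM. No value lay between. Each group but sham LV had libraries on both sides, and the standard errors of its log2 fold changes were correspondingly large. For VO LV against sham LV the log2 fold change was −1 (limma adjusted p = 0.289, standard error 0.55).

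Hspd1 encodes HSP60, the chaperonin of the mitochondrial matrix (chromosome 9, 61680530 to 61690956, - strand), and of the members it had the smallest adjusted p for VO in the LV. It stood at 117, 115 and 129 FPKM in sham LV, against 139, 151 and 150.2 FPKM in sham RV, without overlap (log2 fold change −0.29, limma adjusted p = 0.133, standard error 0.11). In VO LV it was 147, 137 and 178 FPKM, every library above every sham LV library (log2 fold change 0.35, limma adjusted p = 0.105, standard error 0.11). In VO RV it was 145, 132 and 118 FPKM, overlapping sham RV (−0.16, adjusted p = 0.699 from limma). The difference between the responses of the ventricles was 0.51 on the log2 scale (95% interval 0.16 to 0.86, adjusted p = 0.0832 from limma), short of the threshold. Leaving out each library in turn gave 0.40 to 0.59. The genes most like Hspd1 were Sh3glb1 (r = 0.968), Clpx (0.955), the chaperone subunit of the mitochondrial ClpXP protease, and Lynx1 (0.950).

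The unnamed neighbour of Hspd1, read from the other strand, had the opposite order. It was 233, 224 and 232 FPKM in sham LV, above the 170.3, 210.3 and 200.4 FPKM of sham RV (log2 fold change 0.25, limma adjusted p = 0.124, standard error 0.09). In VO LV it was 202, 182 and 201 FPKM, below every sham LV library (−0.23, adjusted p = 0.164 from limma), and in VO RV it was 199.7, 189.8 and 209 FPKM, overlapping sham RV. The difference between the responses was −0.28 (95% interval −0.57 to 0.00, adjusted p = 0.200 from limma), where that of Hspd1 was 0.51. The row has 267 bases and 751 to 969 reads per library, and Hspd1 2227 bases. With each library's gene-length trend removed, AABR07067760.1 kept its sign at smaller values, 0.12 between the sham ventricles, −0.11 for VO in the LV and −0.10 for the difference between the responses. Its small values changed sign in VO RV against sham RV (−0.0030) and between the VO ventricles (0.021).

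Cryab encodes αB-crystallin, a small heat shock protein that guards desmin filaments (chromosome 8, 55178289 to 55182545, + strand), and it had the largest fitted difference between the sham ventricles among the members. In sham LV it was 1542, 1421 and 1416 FPKM, and in sham RV 847, 1156 and 1104 FPKM. The lowest LV library was above the highest RV library, and the means were 1459.9 ± 71.4 and 1036 ± 165 FPKM (SD, n = 3 each). The log2 fold change was 0.51 (standard error 0.17, 95% interval 0.14 to 0.87), a 1.42-fold higher level, with an adjusted p of 0.0924 from limma. The call was reached without VO RV replicate 2 (limma adjusted p = 0.0422), a library outside the comparison that enters the shared estimate of the spread, and the log2 fold change was 0.37 without sham RV replicate 1, the library with 847 FPKM and more atrial and fibroblast markers.

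Under VO the Cryab values of the LV and the RV overlapped. VO LV stood at 1256, 1229 and 1224 FPKM, a narrow set below every sham LV library (log2 fold change −0.24, limma adjusted p = 0.406, standard error 0.17). VO RV stood at 1115, 795 and 1240.3 FPKM, overlapping both sham RV and VO LV, with the 795 FPKM again in VO RV replicate 2. The difference of the responses was −0.25 (95% interval −0.76 to 0.27), and it was 0.023 with quantile normalization and −0.43 to −0.11 when each library was left out. Adgrg1 (r = 0.949), Car4 (0.945) and Spag7 (0.944) were most like Cryab over the 12 libraries. The small heat shock protein gene Hspb2 is its neighbour, 470 bases away.

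Hspb7, a small heat shock protein of heart and skeletal muscle that binds filamin C and restrains actin filament assembly (chromosome 5, 159967839 to 159971562, + strand), had the largest fitted response to VO among the members when all libraries were used. Without sham LV replicate 2 its log2 fold change in the LV was 0.27 and that of Hspd1 was 0.32. It was 717, 478 and 761 FPKM in sham LV, against 906, 826 and 934 FPKM in VO LV, without overlap. The log2 fold change was 0.48 (standard error 0.21, 95% interval 0.02 to 0.93, adjusted p = 0.201 from limma). In sham RV it was 656, 762 and 756 FPKM, and in VO RV 831, 471 and 616 FPKM, on both sides of the sham RV values (−0.21, adjusted p = 0.787 from limma). The difference between the responses was 0.69 on the log2 scale (limma adjusted p = 0.173, standard error 0.30). The lowest values, 471 and 478 FPKM, were those of VO RV replicate 2 and sham LV replicate 2. The same libraries had the lowest shares of reads on mitochondrial genes, 16.0% and 14.4%, against 17.3% to 26.2% in the other 10. Without both libraries, the log2 fold changes of Hspb7 were 0.030 between the sham ventricles, 0.27 for VO in the LV, −0.015 for VO in the RV and 0.28 for the difference between the responses.

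Hspb1 (HSP27), which binds unfolding proteins and caps actin filaments (chromosome 12, 23839399 to 23841049, - strand), had overlapping groups in each comparison. It was 279, 279.9 and 265 FPKM in sham LV, next to 207, 255 and 273 FPKM in sham RV, 281, 270.0 and 286 FPKM in VO LV, and 256, 231 and 312 FPKM in VO RV. LV libraries spanned 265 to 286 FPKM and RV libraries 207 to 312 FPKM. The log2 fold changes were 0.17 between the sham ventricles (95% interval −0.10 to 0.45), 0.02 for VO in the LV (−0.25 to 0.30) and 0.12 for VO in the RV (−0.15 to 0.39). Leaving out each library in turn gave 0.058 to 0.26, −0.00071 to 0.047 and 0.0036 to 0.22 in the same order. The RV libraries of highest fibroblast markers, sham RV replicate 1 and VO RV replicate 2, had the lowest Hspb1 (207 and 231 FPKM), and the part of this in the level was not tested.

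Beyond the members, 122 other chaperone genes were read from lists of heat shock factors, HSP70 and HSP110 relatives, J-domain proteins, nucleotide exchange factors, HSP90 co-chaperones, small heat shock proteins, the cytosolic chaperonin TRiC with prefoldin, ER chaperones and mitochondrial chaperones, and 113 were tested. Between the sham ventricles 5 were DEGs, 4 of them lower in the LV, which is 4.42% beside 3.85% of all genes. Of the 536 DEGs among all genes, 327 were lower in the LV. In VO LV against sham LV, VO RV against sham RV, and VO LV against VO RV, the main limma fit called 0 of 113. An unadjusted p under 0.05 was found for 33 (29.2%, beside 23.4% of all genes), 9 (7.96% beside 8.4%) and 13 (11.5% beside 11.4%), so the last 2 shares lay at the background. With voom on the recovered reads 3 were called in VO LV against sham LV (2.65% beside 2.42% of all genes) and 0 in the other 2. Other fits also called chaperones higher in VO LV than in sham LV. These were 4 with array weights (5.06% of all genes in either direction), 4 without VO RV replicate 3 (3.98%), 3 without sham LV replicate 3 (2.21%) and 3 with the atrial marker covariate (2.33%). A separate fit of these groups (0.855%) and a filter at a mean of 1 FPKM (1.44%) each called 1. For the difference of the LV and RV responses 7 were called, each with the more positive response in the LV, which is 6.19% beside 4.19% of all genes. Of the 583 called among all genes, 481 had the more positive response in the LV. Other fits also called chaperone genes in the other direction, with 9 more positive in the LV and 5 more negative under the atrial marker covariate, 7 and 3 with array weights, 6 and 2 with quantile normalization, and 8 and 2 without VO RV replicate 2. Those fits called 8.72%, 7.51%, 4.52% and 6.53% of all genes in either direction, in the same order. The 5 and 7 calls of the main fit used all 12 libraries. Each was lost in 6 to 10 of the 12 fits that left out a library, while each log2 fold change kept its sign in all of them.

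Hspa9, the mitochondrial HSP70 (mortalin) that pulls precursor proteins into the matrix, had the largest difference. It was 44.1, 32.1 and 55.4 FPKM in sham LV, against 84.1, 91.4 and 70.8 FPKM in sham RV, without overlap (log2 fold change −0.93, limma adjusted p = 0.0485, standard error 0.23). Under VO it was 77, 75.8 and 103 FPKM in the LV and 62.3, 69.4 and 41.1 FPKM in the RV, without overlap with the sham libraries in either ventricle. The difference between the responses was 1.51 on the log2 scale (limma adjusted p = 0.0342, standard error 0.32), and it remained called in 4 of 12 fits that left out a library, with values of 1.28 to 1.69. Dnaja3 (Tid1), the J-domain partner of Hspa9 in the matrix, was 28.2, 22.1 and 30.7 FPKM in sham LV, next to 37.5, 39.7 and 35.4 FPKM in sham RV, 36.0, 35.4 and 40.7 FPKM in VO LV and 33.6, 28.3 and 25.4 FPKM in VO RV. Its difference between the responses was 0.84 (adjusted p = 0.0371 from limma, called in 4 of 12 such fits, at 0.71 to 0.95). In the list of mitochondrial chaperones and proteases, 10 of 14 tested genes had the more positive response in the LV, with a median of 0.30 beside −0.04 over all genes, and Hspa9 and Dnaja3 were the 2 called. This median was 0.18 without VO RV replicate 2.

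In the cytosol, Hspa4 (Apg-2), another HSP110, was 31.3, 29.5 and 33.8 FPKM in sham LV, next to 42.8, 40.0 and 38.2 FPKM in sham RV, 37.7, 39.0 and 45.2 FPKM in VO LV and 35.9, 38.0 and 32.4 FPKM in VO RV. The difference between the responses was 0.54 (adjusted p = 0.0491 from limma), the same direction as the 0.33 of its relative Hsph1, which was not called (adjusted p = 0.269). The call of Hspa4 was lost in 10 of 12 fits that left out a library, in which its difference was 0.47 to 0.60. Bag3, the nucleotide exchange factor that couples HSP70 and small heat shock proteins to autophagy in muscle, was 65.7, 52.1 and 62.3 FPKM in sham LV, next to 78.2, 80.8 and 73.0 FPKM in sham RV, 79.7, 77.7 and 83.2 FPKM in VO LV and 74.9, 60.6 and 67.0 FPKM in VO RV, with a difference of 0.62 (adjusted p = 0.0424 from limma). Unc45b, the myosin chaperone that works with HSP90, had a difference of 0.52 (adjusted p = 0.0342 from limma). Its libraries lay at 61.7 to 62.5 FPKM in sham LV, 72.4 to 76.9 FPKM in sham RV, 71.4 to 81.7 FPKM in VO LV and 59.9 to 69.1 FPKM in VO RV.

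Among the J-domain proteins, which start the ATP cycle of HSP70, Dnaja4 and Dnajc5 were called in the sham comparison and in the difference of responses. Dnaja4 was 32.2 to 44.2 FPKM in sham LV, against 56.6 to 62.3 FPKM in sham RV, without overlap (log2 fold change −0.68, adjusted p = 0.0387 from limma), with a difference of responses of 0.96 (adjusted p = 0.0368 from limma). Dnajc5, the cysteine string protein of secretory vesicles, was 10.3 to 13.8 FPKM in sham LV, against 18.5 to 25.9 FPKM in sham RV (−0.81, adjusted p = 0.0451 from limma), with a difference of 1.39 (adjusted p = 0.0309 from limma). Both calls share the sham libraries. Herpud1, an ER membrane protein of the degradation machinery, was 31.9 to 39.5 FPKM in sham LV, against 52.5 to 61.7 FPKM in sham RV (−0.64, adjusted p = 0.0361 from limma). Sugt1, a co-chaperone of HSP90, was the one chaperone called higher in sham LV in this fit (0.38, adjusted p = 0.0442 from limma), with 22.4 to 27.0 FPKM against 18.3 to 20.0 FPKM. The count called higher in sham LV was 4 with array weights, 2 with voom and 3 without VO RV replicate 2, and 0 with the gene-length trend removed, the atrial marker covariate or a separate fit of the sham groups. The share of all genes called in either direction was 9.5%, 4.93% and 5.18% in the first 3 of these fits and 2.9%, 2.47% and 2.26% in the others, beside 3.85%. None of the 12 calls held when any one of sham LV replicates 1 and 2, sham RV replicates 1 and 2 or VO LV replicate 2 was left out, fits in which 0 to 5 of all genes tested were called in these comparisons. Over the 12 fits the difference of responses was 1.20 to 1.57 for Dnajc5, 0.82 to 1.10 for Dnaja4, 0.52 to 0.70 for Bag3 and 0.47 to 0.57 for Unc45b. The sham comparison gave −1.11 to −0.72 for Hspa9, −0.81 to −0.59 for Dnaja4, −0.92 to −0.65 for Dnajc5, −0.71 to −0.54 for Herpud1 and 0.34 to 0.47 for Sugt1. In these fits the calls held 5 times for Dnajc5, 3 for Dnaja4, 4 for Bag3 and 5 for Unc45b in the difference, and 3 times for Hspa9, 5 for Dnaja4, 3 for Dnajc5, 6 for Herpud1 and 3 for Sugt1 in the sham comparison.

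**Figure D4:**
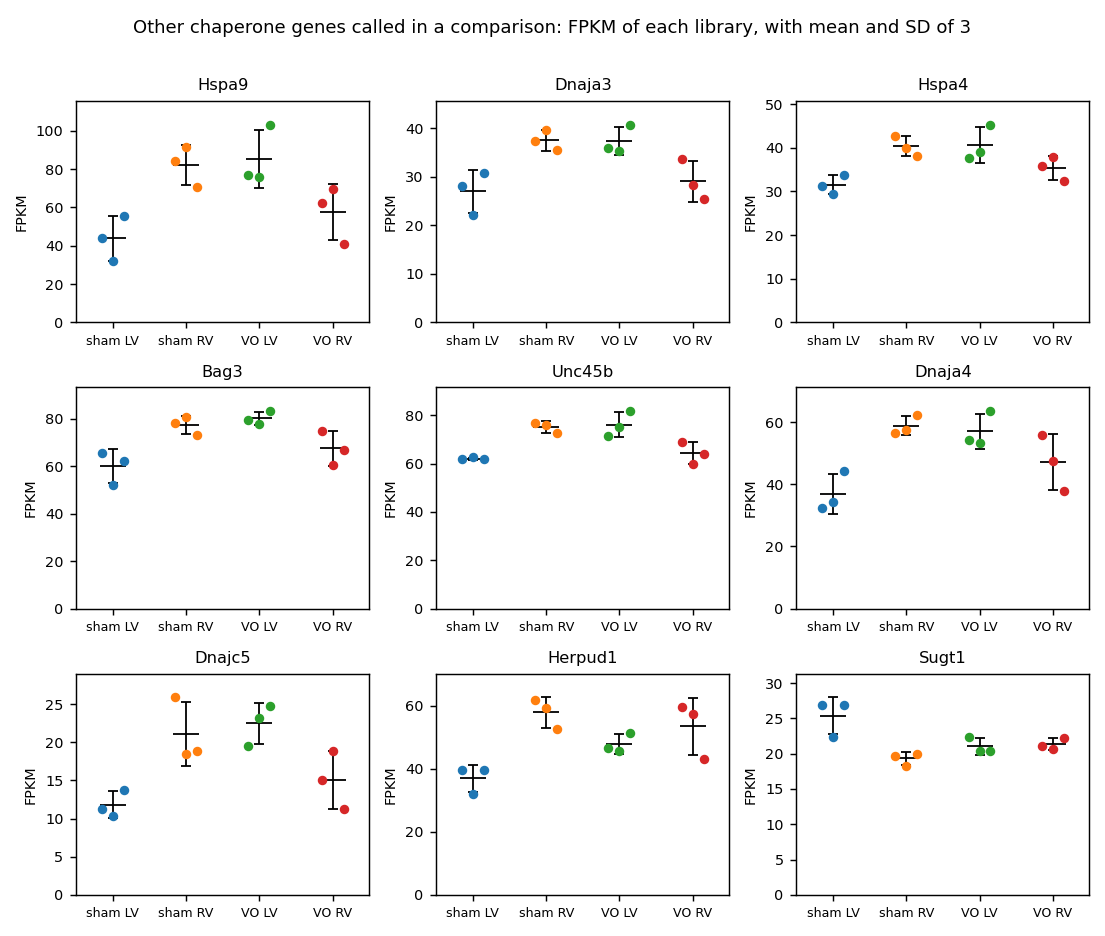
FPKM (vertical axes, from 0) of the 9 chaperone genes outside the members that were called in a comparison, with 3 points per group and mean ± SD. In 8 panels sham LV is the lowest group and sham RV lies above it, and Hspa9 spans from 32.1 FPKM in a sham LV library to 103 FPKM in a VO LV library. Sugt1 is the panel in which sham LV is highest.

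With all 12 libraries in the limma fit, no gene was called in any comparison among the heat shock factors (4 tested), the small heat shock proteins outside the members (4 tested) and TRiC with prefoldin (14 tested). Without VO RV replicate 2, 1 gene of TRiC and prefoldin was called higher in sham LV and 1 more negative in the difference of responses. Array weights gave the same counts, and quantile normalization and the atrial marker covariate gave 1 and 2 more negative in the difference. Array weights and voom each called 1 heat shock factor higher in sham LV. Between the sham ventricles array weights called 9.5% of all genes, voom 4.93% and the fit without VO RV replicate 2 5.18%, and in the difference of responses the shares of all genes were 7.51% with array weights, 6.53% without VO RV replicate 2, 4.52% with quantile normalization and 8.72% with the atrial covariate. In TRiC and prefoldin 11 of 14 were higher in sham LV, with a median log2 fold change of 0.12 beside 0.01 over all genes, and 9 of 14 without sham LV replicate 2 (median 0.06). In the ER list 25 of 29 tested genes, like Hspa5, were lower in VO LV than in VO RV (median −0.15 beside 0.01 over all genes), and 21 of 29 without VO RV replicate 2 (median −0.09), the library with the most fibroblast markers. Of the 13 immediate early genes found, 12 were tested. In VO LV against sham LV 10 of 12 were higher (median 0.41, or 0.26 without VO LV replicate 3), beside 47.2% of all genes with a median of −0.02, and 1 was called, beside 0.0935%. In VO RV against sham RV 12 of 12 were higher (median 0.37), beside 50.6% of all genes with a median of 0.0029, and 0 were called, beside 0%. It was 11 of 12 without sham RV replicate 2, sham RV replicate 3 or VO RV replicate 3, and the median was 0.27 without the last of these. The called gene was Nr4a1, an orphan nuclear receptor gene named here after its values were seen, at 6.26 to 7.40 FPKM in sham LV and 13.5 to 18.4 FPKM in VO LV (2.18-fold, limma adjusted p = 0.0333, called in 6 of 12 fits that left out a library). The summed level of the immediate early genes found was 129 to 148 FPKM in the sham libraries and 159 to 191 FPKM in the VO libraries, without overlap. No background over all genes was taken for this sum. The rows of the heat-inducible Hspa1a and Hspa1b reached at most 0.570 FPKM in any library, with the limit on near-identical copies given above.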

How the data were processed

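Gene expression was measured by RNA sequencing in 12 libraries. Per the labels and the methods, the authors aligned reads with HISAT2 (2.0.5), counted them per gene with featureCounts (1.5.0-p3) and deposited FPKM, which are reads scaled to gene length and library total. The genome build and strand setting are not given in the sources used here. With gene length multiplied back, values under 200 reads came out whole (100%, tolerance 0.02) in each library, so reads were recovered; their sum differed from the total the FPKM imply (0.967 to 1.12 times), a scaling the methods do not describe. No column of values was left unmapped (0).

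After division by a size factor (median of ratios), log2(FPKM + 0.5) was used, so that fold changes of low genes are understated. Genes with a mean of at least 0.5 FPKM were fitted in limma 3.58.1 (R 4.3.3) in 1 model of the 4 groups, with Benjamini-Hochberg adjustment over all genes tested. The fit was tested on simulated data. Exact permutation tests (scipy 1.17.1) were two-sided. The recovered reads were fitted with voom as an alternative, and DESeq2, which the authors used, was not run.

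The members and lists were chosen with earlier results of these data known. Every member is named; of the other chaperones those called in a comparison are named, up to 5 per list, and for likeness the 3 genes of highest r. Promoters came from RefSeq (GRCr8), and 8 of 10 names matched. Alternatives were another scaling, pseudocount, filter, model, gene-length correction, atrial covariate, voom, the replicate block and each library left out. Leaving out pairs of libraries was added after seeing the data.

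Deviations of same-numbered libraries from their group means had correlations of −0.22 to 0.12. With 3 libraries per group and numbers that the labels do not tie to rats, this cannot show whether libraries came from the same rat.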

Additional observations from a re-analysis of the deposited data

Results flagged for a closer look

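In 7 chaperone genes outside the members, the LV and RV responses to VO differed by the interaction term of the limma fit, each with the more positive response in the LV. The differences on the log2 scale were 1.51 for Hspa9, 1.39 for Dnajc5, 0.96 for Dnaja4, 0.84 for Dnaja3, 0.62 for Bag3, 0.54 for Hspa4 and 0.52 for Unc45b. In all 7 the sham LV mean was the lowest of the 4 group means and sham RV lay above it. Other fits also called chaperone genes the other way, with 9 more positive in the LV and 5 more negative under the atrial marker covariate, 7 and 3 with array weights, and 6 and 2 with quantile normalization. Those fits called 8.72%, 7.51% and 4.52% of all genes in this comparison, in the same order. All 7 calls were lost in each of 7 fits that left out a library, those without sham LV replicate 1 or 2, sham RV replicate 1 or 2, VO LV replicate 2 or 3, or VO RV replicate 3. Of all 13910 genes, 111 were called without VO RV replicate 3, 4 without sham RV replicate 2 and 0 in the other 5 of these fits. Each of the 7 differences stayed positive in every fit that left out a library. With all libraries 583 of all genes tested were called in this comparison, 481 of them with the more positive response in the LV.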

How the results depend on the processing

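The count of 0 members called held in each comparison under most alternatives. It was 1 between the sham ventricles with array weights and with the atrial marker covariate (Cryab), and 1 for the difference of responses with quantile normalization (Hspb7, 0.93), fits that called 9.5%, 2.47% and 4.52% of all genes. Leaving out single libraries gave 0 to 1 between the sham ventricles (Cryab without VO RV replicate 2) and 0 elsewhere. The labels do not say that replicate numbers pair the samples, and same-numbered libraries had correlations of their deviations from −0.22 to 0.12. With the replicate block 0 members were called in each comparison, and none of the 12 calls in other chaperone genes held, in a fit that called 0 to 3 of all 13910 genes in each comparison. The block left the log2 fold changes of these 12 calls unchanged. Those 12 calls were also lost when genes of low values were kept, which tests more genes, and when VO RV replicate 2 was left out together with sham RV replicate 1 or with sham LV replicate 2, fits that called 0.0144% to 0.0972% of all genes in these comparisons. With the gene-length trend removed 6 of the 12 were lost (Hspa9, Dnajc5 and Sugt1 between the sham ventricles, Hspa4, Bag3 and Unc45b in the difference, limma adjusted p 0.0513 to 0.0608). Their log2 fold changes were then −0.88, −0.88, 0.37, 0.44, 0.58 and 0.44 in that order. In the main fit they were −0.93, −0.81, 0.38, 0.54, 0.62 and 0.52. The separate fit of the sham groups lost Hspa9, Dnajc5 and Sugt1, and the atrial covariate lost Hspa9, Dnaja4 and Sugt1, all between the sham ventricles. Quantile normalization and robust eBayes lost Hspa4, and a pseudocount of 1 took Sugt1 under the fold threshold.

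Some log2 fold changes took the other sign, none of them called. With array weights these were Hspa5 in VO RV (−0.037) and in the difference of responses (0.0034), the row named Hspa8 between the VO ventricles (0.013) and the Hsc70 row in VO LV (−0.0036). With the atrial covariate they were Hspa5 in VO RV (−0.022), Hspb1 between the VO ventricles (−0.025) and the HSP90-alpha row in VO RV (0.077). With quantile normalization they were Cryab in VO RV (−0.065) and in the difference (0.023) and the Hsc70 row in VO RV (0.011). With the gene-length trend removed they were, in VO RV, Cryab (−0.018), the HSP90-alpha row (0.016) and the neighbour of Hspd1 (−0.0030), and that neighbour between the VO ventricles (0.021). A pseudocount of 0.1 gave 0.0049 for the HSP90-alpha row in VO RV. Without both RV libraries of most atrial markers they were Hspa5 in VO RV (−0.094) and in the difference (0.077), the row named Hspa8 (0.017) and Hspb1 (−0.018) between the VO ventricles, and, in VO RV, the HSP90-alpha row (0.77) and the neighbour (−0.0061). Without both libraries of lowest mitochondrial share they were Hspa5 in VO RV (−0.15) and in the difference (0.15), the row named Hspa8 in VO LV (−0.065) and between the VO ventricles (0.017), Hspb1 between the VO ventricles (−0.018), Hspb7 between the sham ventricles (0.030) and the HSP90-alpha row in VO RV (0.47). The cause was not tested.

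Leaving out each library in turn, 32 of 804 single-gene values changed sign. The ranges were −0.085 to 0.051 (VO LV), −0.15 to 0.15 (VO RV) and −0.16 to 0.14 (difference) for Hspa5, and −0.065 to 0.20 (VO LV) and −0.17 to 0.050 (between VO ventricles) for the row named Hspa8. They were −0.11 to 0.023 (VO RV) and −0.018 to 0.12 (between VO ventricles) for Hsp90ab1, and −0.24 to 0.013 (VO RV) and −0.082 to 0.17 (between VO ventricles) for Hsph1. For Hspb1 they were −0.00071 to 0.047 (VO LV), −0.018 to 0.19 (between VO ventricles) and −0.19 to 0.020 (difference), for Hspb7 −0.31 to 0.030 (sham ventricles) and for Cryab −0.13 to 0.20 (VO RV). For the Hsc70 row they were −0.061 to 0.049 (VO RV), for the HSP90-alpha row −0.21 to 0.66 (sham ventricles) and −0.56 to 0.47 (VO RV), and for the neighbour of Hspd1 −0.040 to 0.11 (VO RV) and −0.068 to 0.014 (between VO ventricles). Depth limits the Hsp90aa1 row, at 3 to 22 reads a library.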
